A study of Mus musculus with 4 samples.

Results

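Translation initiation and elongation factors are the soluble proteins that place a ribosome on an mRNA and then drive it along the coding sequence. The 60 genes described here are the protein-coding mouse genes whose symbols begin with Eif1 to Eif6 or with Eef1 or Eef2, of 50600 genes in the files and 21764 protein-coding genes. The Eif2ak kinases, Eif5a, Eif2s3x and Eif2s3y were kept out by the rule and are given only beside the members. The rule uses names and no measured value, though it was set with earlier results of these data known. By name, 48 are initiation factors and 12 are elongation factors or enzymes that act on them.

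RNA of primary mouse T-helper 17 (Th17) cells, CD4 T cells that make interleukin-17, was measured by RNA-seq in 4 libraries of 1 group. The cells were of strain C57BL/6NJ, the labels link a protocol for differentiating CD4 T cells, sex and age are not recorded, and there is no second treatment, genotype or time. The assay is called total RNA-seq, while the linked library protocol is named for polyadenylated RNA. Output names in the file headers carry a tag of 16 hr that the labels do not explain.

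Libraries held 24696730 to 37025016 fragments. Levels are in TPM, the fragment count of a gene divided by the length of its exons and then normalised so that every library adds up to 1000000, and errors are SD over the 4 libraries. All levels, also those of subunits and enzymes, are of RNA, and protein amounts were not measured. All 8 Th17 and T-cell markers examined reached 1 TPM in each of the 4 libraries, with a summed level of 2572 to 2734 TPM. Of 17 markers of B, myeloid, CD8 and NK, muscle and neuronal, erythroid, stromal and epithelial cells, none reached 1 TPM in all 4 libraries. The epithelial gene Epcam was still at 1.26, 0.870, 2.48 and 1.48 TPM, and Tubb3 at 1.31 TPM in replicate 2. Among these 17, the muscle and neuronal genes summed to 0.295 to 1.31 TPM, with Snap25 and Ckm at 0. The stromal gene Col1a1 was at 0.042 to 0.126 TPM. With Epcam it summed to 0.932 to 2.61 TPM, most of which was Epcam. Each library has its own biosample in the labels, but all have 1 donor identifier, and separate animals are not stated, so the spread between libraries may be partly technical. Replicates 1 and 2 had Xist, the X-inactivation RNA, at 186 and 161 TPM and Ddx3y, a Y-linked gene, at 0.442 and 0.446 TPM. Replicates 3 and 4 had Xist at 0.687 and 0.721 TPM and Ddx3y at 88.6 and 83.2 TPM. By these genes, replicates 1 and 2 were of female type and replicates 3 and 4 of male type, which 1 animal would not give. Whether libraries of the same type came from separate animals is not stated. In bulk RNA, fewer cells that express a gene and less of its RNA per cell cannot be told apart.

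Initiation begins when eIF2 brings the initiator tRNA to the small ribosomal subunit, on which eIF1, eIF1A, eIF3 and eIF5 assemble, while eIF4E, eIF4G and eIF4A bind and unwind the capped end of the mRNA. In elongation, eEF1A delivers each aminoacyl-tRNA, eEF1B recharges eEF1A with GTP, and eEF2 moves the ribosome by a codon. Activated T cells are known to raise protein synthesis as they grow and divide, and eIF4E-binding proteins and the eEF2 kinase are brakes that signalling through mTOR relieves.

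The coding starts of the eEF1A genes are shown first because the largest contrast among the members is between them, and the letters show how the counts of such similar proteins can be told apart. Both lines give the first 150 bases of the coding sequence in GENCODE M21, 5′ to 3′, with capitals at the 21 bases that differ.
Eef1a1: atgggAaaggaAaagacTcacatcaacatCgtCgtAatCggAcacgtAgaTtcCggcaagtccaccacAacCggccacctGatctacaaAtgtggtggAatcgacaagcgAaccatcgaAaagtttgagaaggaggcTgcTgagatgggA
Eef1a2: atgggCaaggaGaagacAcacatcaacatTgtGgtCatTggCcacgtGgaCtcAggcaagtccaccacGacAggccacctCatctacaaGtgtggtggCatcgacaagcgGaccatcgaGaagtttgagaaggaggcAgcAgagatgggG
Over the coding sequence 278 of 1386 compared bases differed, 79.9% identity, while 92.2% of 462 aligned residues of the translated proteins were the same. No 50-base word of the Eef1a1 transcripts occurred in those of Eef1a2. Eef1a1 lies on chromosome 9, 78478449 to 78489151, and Eef1a2 on chromosome 2, 181147653 to 181157014, both on the minus strand of mm10.

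Nearly the whole set was present, and most of it at high levels. In every library 56 of 60 members reached 1 TPM, 53 reached 10 TPM, 43 reached 100 TPM and 5 reached 1000 TPM. Of the 21764 protein-coding genes, 44.8% reached 1 TPM, 8.72% reached 100 TPM and 0.542% reached 1000 TPM by the same rule. Among genes at 1 TPM in every library, the median was 291 TPM for the members and 31.2 TPM for protein-coding genes. The 4 members below 1 TPM in some library were Eif4ebp3, Eef1akmt3, Eef1a2 and Eif4e1b. The plot of members by role spans about the whole range of the data, from genes without a fragment to the most abundant of all genes.

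**Figure D1:**
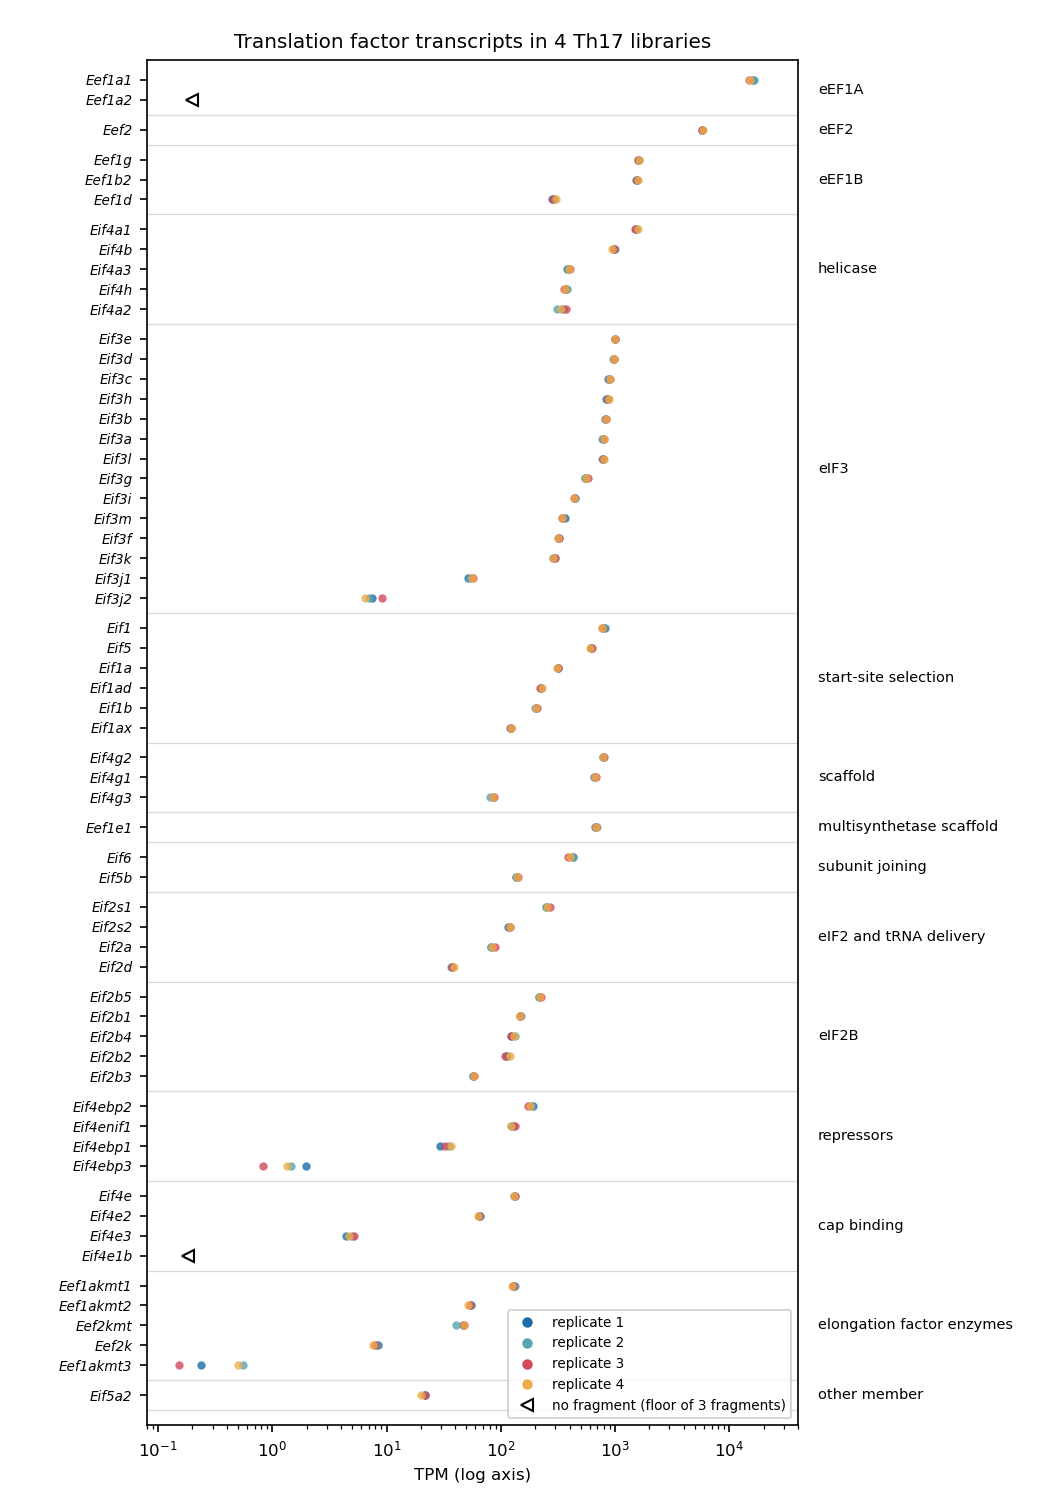
TPM (log axis) of the 60 members in each of the 4 Th17 libraries, grouped by role, 1 point per library and member. Eef1a1 lies far to the right at a mean of 15676 TPM, and the triangles mark Eef1a2 and Eif4e1b, which had no fragment, at the floor of 3 fragments for the library of least depth.

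Together the members held 4.40, 4.46, 4.28 and 4.35% of all TPM in replicates 1 to 4, a mean of 4.37% ± 0.075. The 48 initiation factor genes made up 1.79% ± 0.0077 and the 12 elongation factor genes 2.59% ± 0.082. Eef1a1 and Eef2 alone held 49.1% ± 0.99 of the members' TPM, and Eef1a1 by itself 35.8% ± 1.29. The share of the elongation genes was 2.61, 2.68, 2.49 and 2.56% in replicates 1 to 4. That of the initiation genes lay between 1.78 and 1.80% in every library.

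Of the eEF1A genes, Eef1a1 was abundant and Eef1a2 was not detected. Eef1a1 was at 16094, 16601, 14767 and 15242 TPM in replicates 1 to 4, which made it the most abundant of all genes by mean TPM. Its levels in replicates 1 and 2 were above those in replicates 3 and 4, the same libraries that Xist and Ddx3y separated, and the part of that difference in the Eef1a1 levels was not tested. How many of all genes were split in this way was not counted. Eef1a2, which encodes the form used in adult muscle and neurons, had no fragment in any library. A floor of 3 fragments in the shallowest library corresponds to 0.196 TPM for Eef1a2, so Eef1a1 was at least 84514-fold higher there. Such floors cover counting error only.

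Of the Eef1a1 transcript words of 50 bases, 40.4% also occurred in transcripts of 21 other genes. The gene that shared most, Gm13456 with 24.7%, was at 26.1 TPM, and the highest gene that shared any, Gm26384, was at 53.0 TPM. If fragments that align to several places were left out of the counts, which the headers do not say, Eef1a1 would be undercounted.

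Eef2, the translocase on chromosome 10 (81176631 to 81182498), was the next most abundant member. It was at 5729.5, 5792, 5777 and 5939 TPM in replicates 1 to 4. Eef1a1 exceeded Eef2 in all 4 libraries, by 1.43 ± 0.086 on the log2(TPM + 1) scale used for all differences between genes. The exact two-sided sign-flip permutation test over 4 libraries gave a p of 2 in 16, the smallest share of sign patterns that it can give, so no pair of genes could pass 0.05. The same p, also after Benjamini-Hochberg adjustment, was found for each of the 16 pairs of paralogues or related factors and each of the 10 pairs of partners compared. All 26 comparisons had the same sign in 4 of 4 libraries.

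The exchange complex eEF1B reloads eEF1A with GTP. Its structural subunit Eef1g was at 1585, 1637, 1577 and 1612 TPM, and the catalytic subunit Eef1b2 at 1539.7, 1565, 1553 and 1575 TPM. The other catalytic subunit, Eef1d, was at 281, 292, 287 and 301 TPM. Eef1g and Eef1b2 thus ran close together, 0.04 ± 0.018 apart on the log2 scale, with ranges over libraries that did not overlap, and both lay above Eef1d in every library. Eef1b2 exceeded Eef1d by 2.42 ± 0.028, which became 1.75 with the longest protein-coding transcript as the length of each gene. Of the Eef1g words, 44.2% occurred in other genes, mainly Gm4366 at 40.1 TPM. Eef1a1 exceeded Eef1b2 by 3.33 ± 0.079.

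Transcripts of enzymes that modify elongation factors were far below those of their substrates. Eef2k, the kinase that phosphorylates and slows eEF2, was at 8.42, 8.12, 7.90 and 7.55 TPM, with Eef2 higher by 9.34 ± 0.080 on the log2 scale. Eef2kmt, a methyltransferase of eEF2, was at 46.6, 40.9, 47.5 and 48.1 TPM. Among the eEF1A lysine methyltransferases, Eef1akmt1 averaged 129.6 and Eef1akmt2 53.97 TPM. Eef1akmt3 was at 0.236, 0.552, 0.152 and 0.506 TPM, with a CV (SD over mean) of 54.5% against 32.8% expected from counting alone. The methyltransferases therefore spanned from over 100 TPM to under 1 TPM. Eef1e1, which despite its symbol encodes a scaffold protein of the tRNA synthetase complex, was at 680 ± 7.54 TPM by the length in the files (1032 bases). By its longest protein-coding transcript (2553 bases in GENCODE M21) it was at 204 TPM. That transcript is longer than the exons on which its fragments were counted, so 204 TPM is not a like value. Eif5a2, a relative of Eif5a that the rule retains, was at 21.3 ± 0.789 TPM.

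Among the start-site factors, Eif1 and Eif1a each had a less abundant relative. Eif1, which guards the choice of start codon, was at 814, 804, 768 and 776 TPM. Eif1b, whose protein is 92.0% identical to that of Eif1, was at 202, 199, 207 and 204 TPM. Eif1 exceeded Eif1b by 1.96 ± 0.062 on the log2 scale, and by more in replicates 1 and 2 (2.01 in each) than in replicates 3 and 4 (1.89 and 1.92). Eif1 was higher in replicates 1 and 2 than in replicates 3 and 4, and Eif1b was lower in them. Other members, among them Eif3c and Eif3h, were also split between these libraries, and the share of all genes split so was not counted.

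Eif1a and Eif1ax encode eIF1A proteins that were identical at 98.6% of 144 aligned residues. Eif1a was at 315, 317, 319 and 309.8 TPM. The X-linked Eif1ax was at 121, 122, 123 and 124 TPM. Eif1a was higher by 1.36 ± 0.028, and Eif1ax, the one X-linked member, had a CV of 0.981% over libraries that Xist separated. Eif5, the GTPase-activating protein of eIF2, was at 615 ± 8.24 TPM, and Eif1ad, an eIF1A-like protein, at 224 ± 4.12 TPM. Of the subunit-joining factors, Eif5b, the GTPase of that step, was at 138 ± 3.08 TPM. Eif6, which keeps the large subunit free until it joins, was at 425, 429, 388 and 407 TPM.

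The subunits of eIF2 and of its exchange factor eIF2B lay below those of the eIF3 core by the length in the files. With the longest-transcript length, Eif2s1 at 275 ± 9.04 TPM and Eif3f at 273 ± 3.77 TPM were not apart. Eif2s1, the alpha subunit that stress kinases phosphorylate, was at 251, 252, 268 and 252 TPM. Eif2s2, the beta subunit, was at 117, 119, 121 and 119 TPM. Eif2s1 thus exceeded Eif2s2 by 1.09 ± 0.035, a gap that shrank to 0.23 with the longest-transcript length, at which they were at 275 and 234 TPM. Eif2a and Eif2d, factors for alternative tRNA delivery, averaged 84.2 and 37.6 TPM.

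In eIF2B, the catalytic epsilon subunit led and its partner in the catalytic pair was lowest. Eif2b5 (epsilon) was at 218, 215, 225 and 219 TPM. Eif2b3 (gamma) was at 56.6, 57.3, 58.03 and 57.9 TPM. The regulatory subunits lay between them, Eif2b1 at 147.8 ± 1.23, Eif2b4 at 127.5 ± 4.75 and Eif2b2 at 113 ± 4.65 TPM, and no neighbours in this order overlapped. The span of eIF2B was 3.81 ± 0.057-fold. Eif2s1 exceeded Eif2b5 by 0.22 ± 0.025.

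The 12 subunits of the eIF3 core, Eif3a to Eif3m without the loosely bound j subunit, lay within 3.43 ± 0.051-fold. Eif3e led at 993, 1001, 1009 and 995 TPM. Eif3k, at the other end, was at 284, 296, 297 and 288 TPM. Between them Eif3d, Eif3c, Eif3h, Eif3b, Eif3a and Eif3l lay from 785 to 975 TPM on average, followed by Eif3g at 554, Eif3i at 443, Eif3m at 348 and Eif3f at 320 TPM. Of 11 neighbours in this order, 8 did not overlap over the libraries. The order of both ends held in all 4 libraries, but it rests on exon length.

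With the longest protein-coding transcript as length, Eif3i was highest at 1081 TPM and Eif3f lowest at 273 TPM, while Eif3k stood at 641 TPM, as the plot of subunits under both lengths shows. The exons of Eif3i add up to 3702 bases in the files and its longest protein-coding transcript to 1123 bases. For 17 of 60 members the summed length was over 1.5 times the longest transcript, and for 6 it was shorter than that transcript. The subunit j genes were lower. Eif3j1 was at 51.7, 53.97, 57.6 and 55.7 TPM. Eif3j2 was at 7.41, 6.997, 9.08 and 6.51 TPM. Since 91.8% of the Eif3j2 words occur in other genes, almost all of them in Eif3j1, the split between this pair is uncertain.

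**Figure D2:**
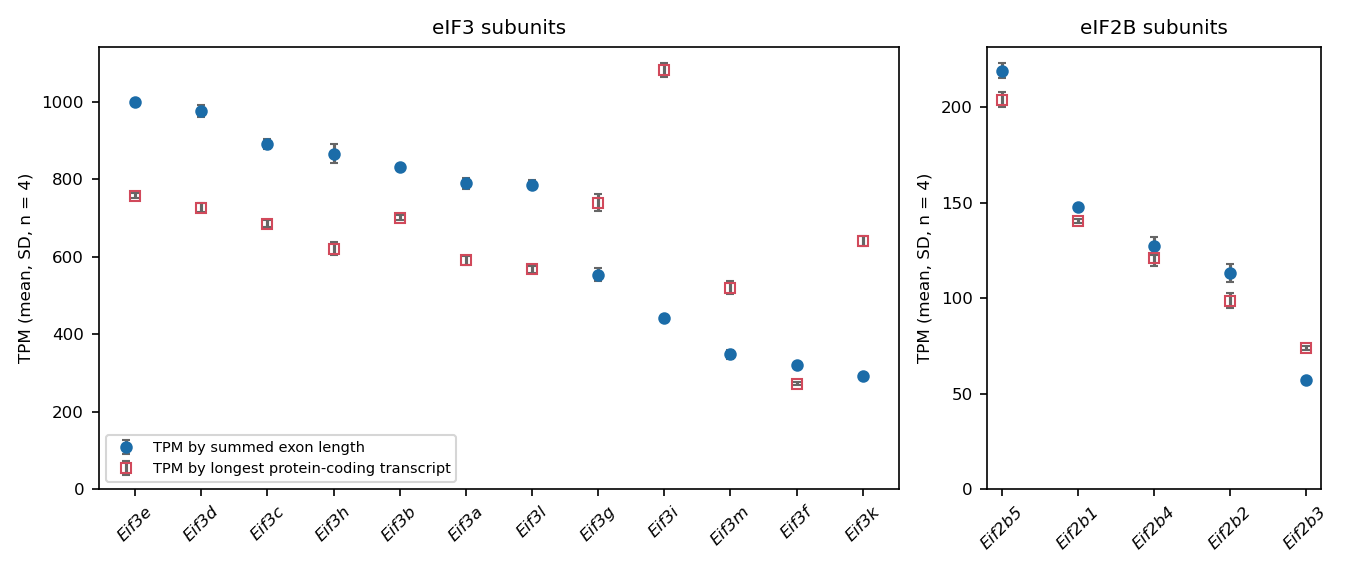
Mean TPM with SD (n = 4 libraries) of the 12 eIF3 core subunits and the 5 eIF2B subunits, with the summed exon length of the files (filled circles) and with the longest protein-coding transcript (open squares). Eif3i moves from 443 to 1081 TPM and Eif3k from 291 to 641 TPM, and the eIF2B subunits keep their order.

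At the cap, transcripts of the helicase gene were far more abundant than those of the cap-binding gene. Eif4a1, the main helicase of the cap complex (chromosome 11, 69666936 to 69672423), was at 1527, 1533, 1485 and 1589 TPM. Eif4a2, whose protein is 90.1% identical, was at 351, 312, 373 and 335 TPM. Eif4a3, the 67.9% identical helicase of the exon junction complex, was at 378, 384, 401 and 396 TPM. Eif4a1 led in each library by 2.16 ± 0.14 over Eif4a2 and 1.97 ± 0.059 over Eif4a3. Eif4a2 lay below Eif4a3 without overlap, at 312 to 373 against 378 to 401 TPM, but this order turned with the longest-transcript length, at 501 ± 38.02 against 406 ± 11.1 TPM. With that length, Eif4a1 was at 2776 TPM and its lead over Eif4a3 was 2.77. Of the Eif4a1 words, 28.4% occur in other genes, mostly Eif4a-ps4 at 62.9 TPM.

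The helicase cofactors were Eif4b at 975, 996, 987 and 949.5 TPM and Eif4h at 376, 379, 358 and 368 TPM. Eif4b was higher by 1.397 ± 0.043, which fell to 0.37 with the longest-transcript length, where the summed exons of Eif4h are 2.04 times as long as its longest transcript.

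The transcripts of the cap-binding proteins fell in a wide order. Eif4e, which binds the cap and nucleates the complex, was at 132, 134, 135 and 131 TPM. Eif4e2, a cap-binding relative linked to repression, was at 65.2, 65.6, 64.8 and 62.7 TPM. Eif4e3 was at 4.46, 4.99, 5.22 and 4.66 TPM. No library of one overlapped with any of another, and Eif4e1b, a germ-cell relative, had no fragment, so that Eif4e was at least 684-fold higher in the shallowest library. Eif4e exceeded Eif4e2 by 1.03 ± 0.022 (0.20 with the longest-transcript length) and Eif4e3 by 4.52 ± 0.068. Eif4e2 exceeded Eif4e3 by 3.49 ± 0.082. Eif4a1 exceeded Eif4e by 3.52 ± 0.056.

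The scaffolds were led by the member that lacks the Eif4e-binding part. Eif4g2, used in cap-independent initiation, was at 781, 783, 796 and 789 TPM. Eif4g1, the main scaffold, was at 661, 672, 677 and 672 TPM. Eif4g3 was at 86.3, 80.3, 87.7 and 84.8 TPM. Eif4g2 lay slightly above Eif4g1 in every library, the log2 difference of Eif4g1 over Eif4g2 being -0.23 ± 0.0085, and both were far above Eif4g3, over which Eif4g1 led by 2.97 ± 0.057. Eif4a1 exceeded Eif4g1 by 1.19 ± 0.045, or 2.12 by the longest-transcript length.

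Of the repressors that compete with the scaffolds for Eif4e, Eif4ebp2 was the abundant form. Eif4ebp2 was at 192, 183, 174 and 180.5 TPM. Eif4ebp1 was at 29.1, 34.9, 32.3 and 36.7 TPM. Eif4ebp3 was at 1.98, 1.47, 0.834 and 1.36 TPM. The 3 levels did not overlap. The log2 difference of Eif4ebp1 over Eif4ebp2 was -2.42 ± 0.18, and that of Eif4ebp1 and Eif4ebp2 over Eif4ebp3 was 3.85 ± 0.36 and 6.27 ± 0.23. Eif4e was above Eif4ebp1 by 1.97 ± 0.14 but below Eif4ebp2, at a difference of -0.45 ± 0.072. Eif4enif1, which carries Eif4e into the nucleus and to repressed mRNAs, was at 127 ± 4.55 TPM.

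**Figure D3:**
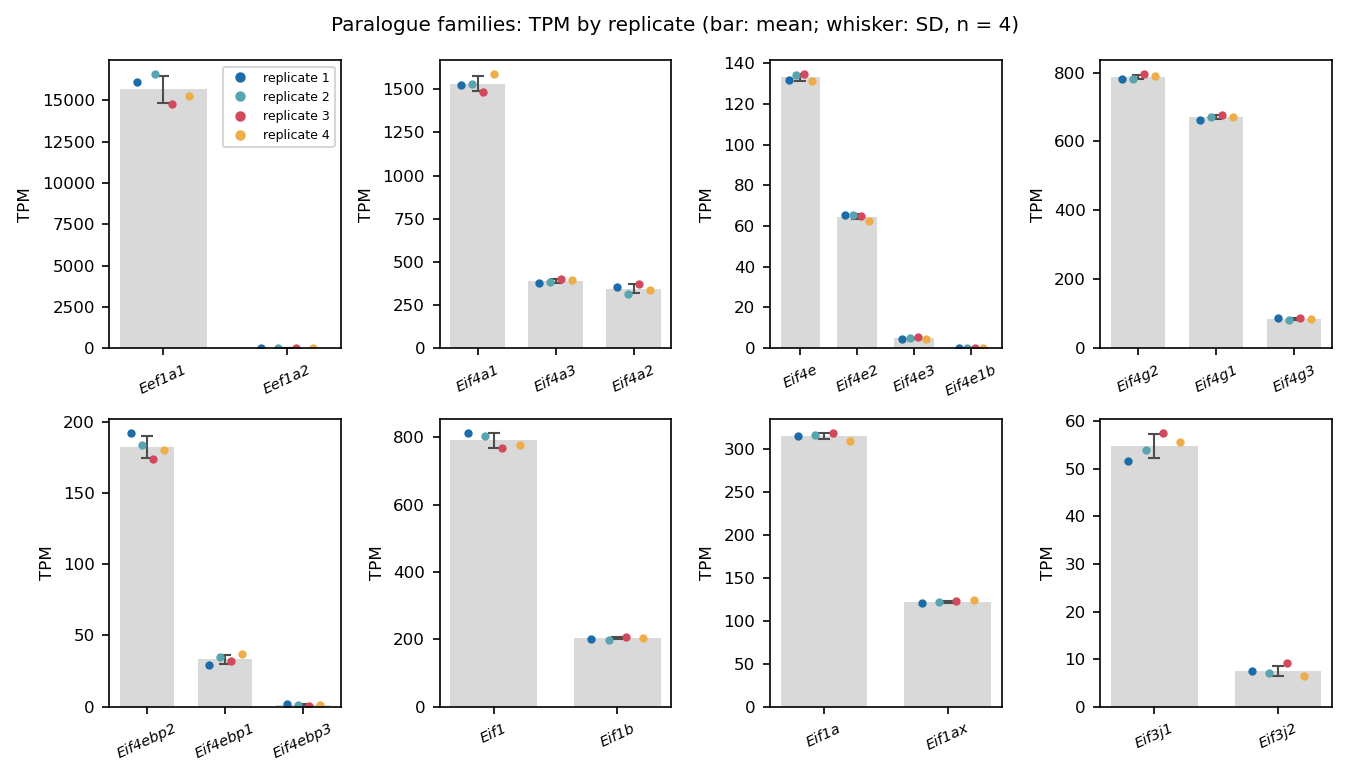
TPM of 8 families of related members, each panel with its own axis from 0, with a bar for the mean, a whisker for the SD and a point for each of 4 libraries. The gaps range from Eef1a2 with no fragment beside Eef1a1 at 15676 TPM to Eif4g1 at 671 TPM just under Eif4g2 at 787 TPM. The low scaffold is Eif4g3 at 84.8 TPM.

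Between replicates the members varied little. The median CV was 2.48%, and 50 of the 58 members with a fragment were under 5%. The share of all genes under 5% was not counted, and abundant genes have little counting error, so these counts do not set the members apart. Of these 58, 28 had a CV of their CPM (counts scaled to library size, without length) within 2 times that expected from counting alone. For all genes, this count was not made. The rank by TPM was the same in all 4 libraries for 28 members and never moved by more than 4 places, and 27 of 59 neighbours in the order overlapped.

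Whether a gene varied between replicates more than genes of its abundance was tested with edgeR's quasi-likelihood fit over 11847 genes. Of these 36 (0.304%) were called at adjusted p under 0.05, and 0 of the 56 members tested. At an unadjusted p under 0.05 there were 3 members, and 674 genes in all. With limma-trend, 0 members and 40 genes in all were called. An unadjusted p under 0.05 was then found for 4 members and 684 genes in all. The median F ratio of the members was 0.578, against 0.804 over all genes tested. Eif4ebp3, Eef1akmt3, Eef1a2 and Eif4e1b did not pass the filter on low counts.

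The smallest p-values belonged to Eef1a1, Eif4a2 and Eif4ebp1. The adjusted p of Eef1a1 was 0.0733 in edgeR, and its CV of CPM was 5.35% against 0.165% expected from counting. Without replicate 1, its adjusted p in edgeR was 0.00201, the one case in which a member was called. In edgeR it was 0.0767 with DESeq2 size factors, 0.511 with a prior that was not robust and 0.725 without chromosomes X and Y. With limma-trend it was 0.492. Eif4a2 had an adjusted p of 0.445, with the lowest library, replicate 2, at 312 TPM and the highest, replicate 3, at 373 TPM. Eif4ebp1 had an adjusted p of 0.707, with replicate 1 lowest and replicate 4 highest. The 3 members did not share an order of libraries, as the plot of deviations shows.

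**Figure D4:**
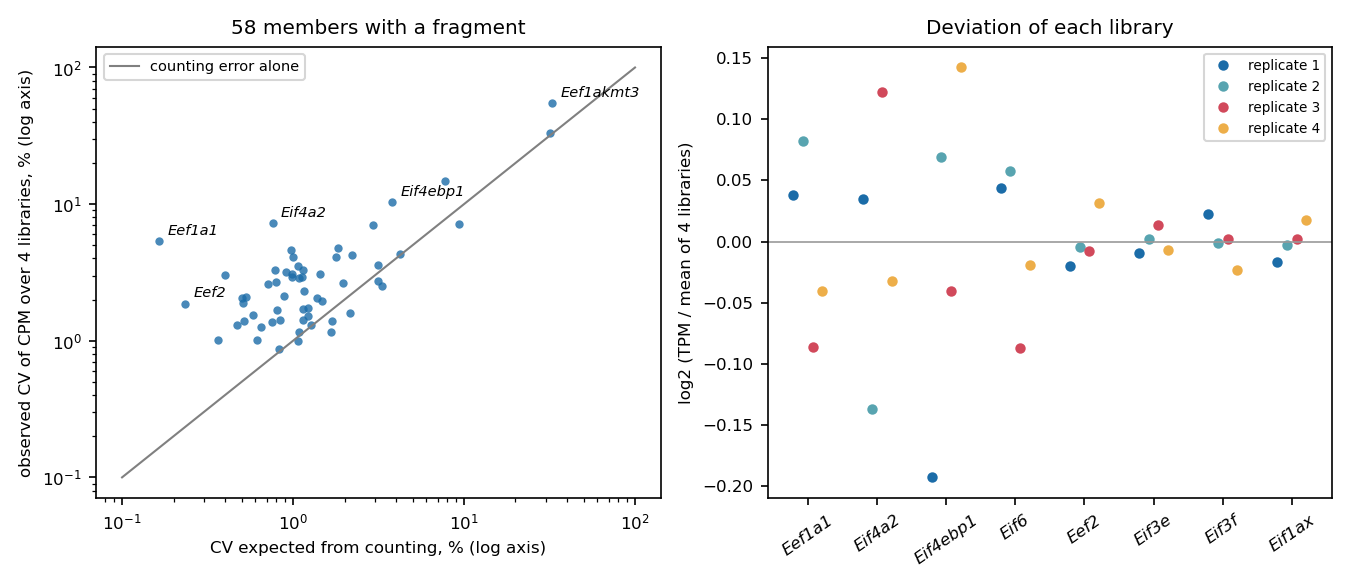
Left, the CV of CPM over 4 libraries (log axis) of the 58 members with a fragment against the CV that counting alone would give (log axis; the line marks equality). Right, the log2 deviation of each library from the mean TPM of 8 members, where Eef1a1 is highest in replicate 2, Eif4a2 in replicate 3 and Eif4ebp1 in replicate 4.

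Other genes of the translation pathway that were listed had a lower median level than the members. The list also holds kinases and factors of mitochondrial translation, so it is not a like set. Of 37 listed, 35 reached 1 TPM in every library and 15 reached 100 TPM. Their median was 64.8 TPM, against 240 TPM over all 60 members. The highest were Eif5a, the hypusinated elongation factor, at 4015 ± 115 TPM, Tpt1 at 1515 ± 46.6, the poly(A)-binding protein gene Pabpc1 at 1195 ± 21.9 and the helicase gene Ddx3x at 890 ± 14.1 TPM. The lowest was Gspt2, a release factor gene, at 0.101 ± 0.032 TPM. Of 36 tested, 2 varied between replicates, and both encode the gamma subunit of eIF2. Eif2s3y, on chromosome Y, was at 0.287, 0.328, 86.7 and 71.4 TPM (edgeR adjusted p = 2.89e-24). Eif2s3x, on chromosome X, was at 156, 159, 100.1 and 103 TPM (edgeR adjusted p = 6.58e-10). These genes were high and low in the libraries that Xist and Ddx3y separated, while the alpha and beta subunits Eif2s1 and Eif2s2 were not called.

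RefSeq promoter windows (GRCm38.p6, 250 bases before to 50 after a start) were held for 44 of the 60 members. The letters CACGTG, the E-box that Myc and related factors can bind, were found in 11 of 44 members (25%), in 8.09% of 27025 genes and in 12.7% of the 8083 genes at 1 TPM in every library. The letters CCGGAAG, a site type of ETS factors, were found in 34.1% of the members, 9.93% of genes and 23.5% of genes at 1 TPM. The letters CCAAT were found in 29.5, 41.1 and 43.6%, AAGATGG in 11.4, 7.28 and 9.19% and TATAAA in 9.09, 15.7 and 7.77% of the same sets. Both strands were searched, CACGTG reads the same on both, and none of the motifs contains another. The E-box matches of the translocase gene and of 1 helicase, 1 scaffold and 1 cap-binding gene of the cap complex are printed, since those factors recur in the comparisons, with the motif in capitals, on the strand of the gene.
Eef2 (chr10:81176576-81176605, plus strand): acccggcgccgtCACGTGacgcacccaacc
Eif4a1 (chr11:69672595-69672624, minus strand): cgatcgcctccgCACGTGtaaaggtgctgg
Eif4g1 (chr16:20672661-20672690, plus strand): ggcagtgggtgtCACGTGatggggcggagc
Eif4e (chr3:138527028-138527057, plus strand): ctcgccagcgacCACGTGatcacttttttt
Members with the match had a median of 320 TPM and those without it 219 TPM. A match is a description of letters in the window, and binding was not measured.

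mRNAs of the translation machinery are known for a terminal oligopyrimidine tract, a C at the start followed by pyrimidines. Exactly at the RefSeq start, a C followed by at least 4 pyrimidines was found in 1 of 44 members (2.27%), Eif3f. It was found in 3.01% of genes and in 3.12% of genes at 1 TPM in every library. Within 10 bases on either side of the start it was found in 13 members (29.5%), in 34.4% of genes and in 37.2% of genes at 1 TPM. The starts used in these cells were not mapped and may differ from the annotated ones. These shares therefore do not tell which mRNAs carry such a tract. The 30 bases around the start, with the run in capitals, are printed for Eef1a1, the most abundant member, and for Eif3f.
Eef1a1 (chr9:78481710-78481739, minus strand): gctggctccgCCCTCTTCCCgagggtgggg
Eif3f (chr7:108934400-108934429, plus strand): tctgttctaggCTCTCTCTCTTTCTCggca
In Eef1a1 the run starts 5 bases before the annotated start, and whether it is part of the mRNA was not measured. Members with a run near the start had a median of 224 TPM and those without it 255 TPM.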

How the data were processed

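Whole fragment counts for each gene were deposited, made per the file headers with featureCounts 1.4.6-p4 on GENCODE M13 exons (mm10 per the labels) with strand option 2. How fragments with several alignments were handled is not stated there. The Length column, also deposited, is the summed exon length.

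Symbols and classes came from GENCODE M21 (50376 of 50600 genes matched), and coordinates and longest protein-coding transcripts from the same annotation. TPM was computed as count over Length, scaled to 1e+06. Differences between genes used log2(TPM + 1), which understates folds of low genes, and an exact sign-flip permutation test. A floor of 3 fragments was used for genes with none.

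The variability test was edgeR 4.0.16 under R 4.3.3 (TMM, filterByExpr, intercept only, robust prior, Benjamini-Hochberg). On simulated data with 11847 genes, it found 57% of the genes given a log2 SD of 0.25 and 97% of those given 0.5, with 4 false of 158 calls. Extra spread was given only to genes above a minimum mean count, so these shares do not cover genes of low count. All genes were drawn at the fitted dispersion trend, without differences between genes around it, which real genes may have. Alternatives used DESeq2 1.42.0 size factors, limma 3.58.1, other filters, priors, pseudocounts and lengths, and each replicate left out.

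Members, pairs and lists were chosen with earlier results of these data known. Every member may be named. Values in every library are for pairs, extremes and the smallest p-values. Protein identity came from coding sequences of GENCODE M21 translated and aligned with Biopython 1.88. The Eif4g2 protein was not compared, and the planned search for eIF4E-binding sequences was not run. Other work used Python 3.11.15 with pandas 2.3.3, scipy 1.17.1 and matplotlib 3.10.9.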

Additional observations from a re-analysis of the deposited data

Results flagged for a closer look

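Of 91 sets of 4 values examined (TPM of members with a fragment, their shares of TPM, the pair differences and the subunit ranges), 6 had 1 library far from the others by Dixon's criterion, where chance gives about 1 in 20. Eif3d was at 952 TPM in replicate 2 and 980.1 to 984 TPM in the others. Eif3m was at 365 TPM in replicate 1 and 342.3 to 342.5 TPM in the others. Eif2s1 was at 268 TPM in replicate 3 and 251 to 252 TPM in the others. Eif5a2 was at 20.1 TPM in replicate 4 and 21.6 to 21.8 TPM in the others. The log2 difference of Eif4a1 over Eif4a3 was 1.88 in replicate 3 and 1.99 to 2.01 in the others, and that of Eif1a over Eif1ax was 1.32 in replicate 4 and 1.37 in the others. Replicates 3 and 4 each held 2 of the 6 values and replicates 1 and 2 each held 1.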

How the results depend on the processing

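All 182 recomputed differences between pairs of members kept their sign under another pseudocount, the longest-transcript length, CPM and each replicate left out. The number of members at 1 TPM stayed within 1.5 times its main value under every threshold, length and set of replicates tried. The members' share of 4.37% was 4.48% without mitochondrial and ribosomal RNA genes and 4.05% of fragments. For initiation factors 1.79% became 1.83, 2.00 (fragments) and 1.90% (longest transcript), and for elongation factors 2.59% became 2.05% of fragments and 2.48% with the longest transcript. The log2 range of subunits, with the longest transcript and in CPM, was 1.99 and 2.38 in eIF3 (1.78 in the main analysis), 1.46 and 1.72 in eIF2B (1.93), 0.23 and 0.65 in eIF2 alpha and beta (1.10), and 1.89 and 1.28 in eEF1B (2.46). Each of these changes follows from the length or denominator used. Counts of variable genes were 36 in the main analysis, 94 without a filter on low counts (20704 genes tested), 17 with a prior that was not robust, and 15 to 37 with each replicate left out, the lowest without replicate 4; the cause was not tested. The number of members called was 0 to 1 with a replicate left out, Eef1a1 without replicate 1, and its adjusted p over the 9 alternatives lay between 0.00201 and 0.725. No paired analysis was possible because there is 1 group.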

Other observations

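Chi-square over its degrees of freedom between pairs of libraries was larger over the members than over all genes with at least 10 fragments. At the same relative spread this ratio grows with the fragment count, and the members are abundant, so a larger value does not show that they varied more. In the edgeR fit, which compares genes of like abundance, the median F ratio was 0.578 for the members and 0.804 over all genes tested. The chi-square ratio was 6.63 for replicates 1 and 2 and 12.6 for replicates 3 and 4 over 58 members, against 3.41 and 3.66 over all genes. For replicates 2 and 3 it was 41.6 over the members and 6.84 over all genes. Without Eef1a1, a comparison chosen after its values were seen, it was 11.2 over the other 57 members for replicates 2 and 3, 10.9 for replicates 3 and 4 and 5.09 for replicates 1 and 2. For replicates 2 and 4 it was then 5.15, below the 6.39 over all genes, from 24.5 with Eef1a1.

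Shared sequence was uneven over the members. None of the 50-base words of 15 members occurred in another gene, 33 members, these included, had under 5% shared, and 8 had over 20%. Besides those given above, these were Eif3d, with 37.2% shared with Gm17638 (0.043 TPM), Eif4ebp3 with 65.5%, Eif3j1 with 50.9% and Eif3h with 20.3%.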
